A study of Caenorhabditis elegans with 33 samples.

Results

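Transcripts of 41 genes for histone-modifying enzymes and heterochromatin proteins were followed in whole *Caenorhabditis elegans* over 4 generations of chronic gamma irradiation. The genes were chosen by name, as methyltransferases, demethylases, deacetylases, HP1 proteins and repressive complexes tied to inheritance between generations. All 41 names matched 1 identifier each among the 46778 in every library, and all 41 were among the 17627 genes with enough counts to be tested. All groups were wild-type N2 worms fed OP50 bacteria at 19 °C, and the labels name no transgene or mutation. Exposed animals received 50 mGy per h for 65 h from the embryo onwards in each of the generations F0, F1, F2 and F3. Recovery animals had irradiated F0 ancestors and were themselves unirradiated in F1, F2 and F3, and control animals of F0 to F3 were never irradiated. The labels give the stage both as L4 and as young adult, and each of the 11 groups held 3 libraries described as biological replicates. The labels do not say whether these came from separate irradiations, so each p-value measures only the spread between libraries. In RNA from whole animals, fewer cells of a type and less RNA per cell cannot be told apart.

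Histone tails carry methyl and acetyl groups that are placed, removed and read by separate proteins. Methylation of H3K9 and H3K27 marks repressed chromatin, and methylation of H3K4 and H3K36 marks transcribed genes. HP1 and other chromodomain proteins bind methylated H3K9 and help to compact or anchor heterochromatin. In the *C. elegans* germline the balance of these marks is passed from parent to offspring: worms that lack the H3K4 demethylase SPR-5 lose fertility over successive generations, and MES-4 with the PRC2 complex (MES-2, MES-3 and MES-6) preserves germline identity in the embryo. H3K9 methyltransferases act with small RNAs in silencing that lasts for generations.

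The 41 transcripts were spread over a wide range of levels but moved little between groups. Levels are in CPM (counts of a gene per 1000000 counts, scaled between libraries by the TMM method), and levels of different genes are compared per kb of annotated exon. Averaged over the 11 groups, *lin-53*, a histone-binding WD40 protein of several chromatin complexes, was at 178 CPM per kb, the highest of the 41. It was followed by the H3K4 methyltransferase gene *set-17* at 131 and the class I deacetylase gene *hda-1* at 121 CPM per kb. The lowest were *set-26* at 4.25, the H3K27 demethylase gene *utx-1* at 5.44 and the Mi-2 remodeller gene *chd-3* at 5.62 CPM per kb. The HP1 paralogs differed in level: *hpl-2* was at 89.2 and *hpl-1* at 8.15 CPM per kb. No member was near the detection limit, since the lowest count of any member in any library was 164, for *hpl-1*.

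**Figure D1:**
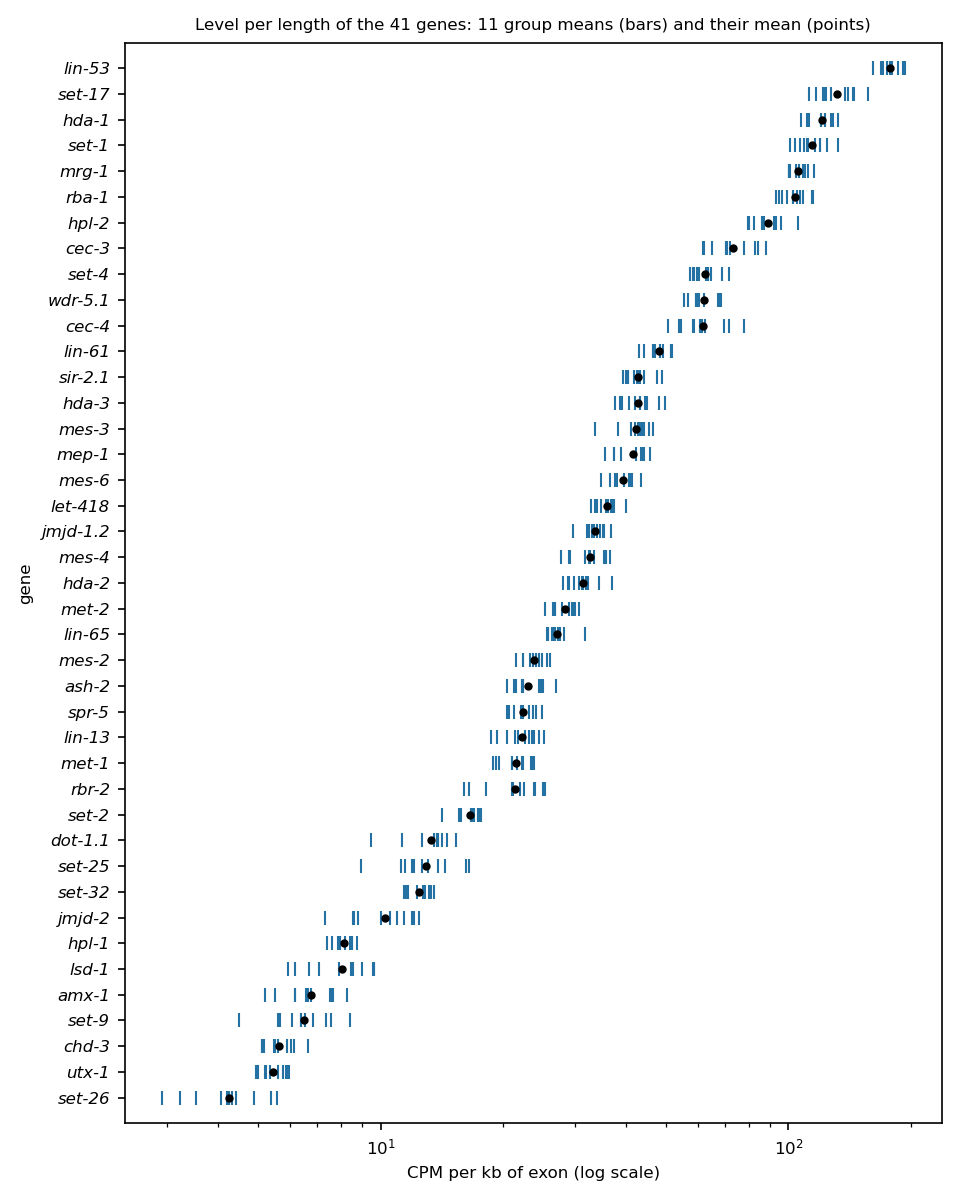
Level per length of each of the 41 genes, in CPM per kb of exon on a log axis, with bars for the 11 group means and a point for their mean. The genes span from 4.25 (*set-26*) to 178 (*lin-53*) CPM per kb, and the group means of a gene lie close together beside the distance between genes.

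The ratio of a gene's highest to its lowest group mean ran from 1.15 (*mrg-1*) to 1.92 (*set-26*), with a median of 1.29, and was under 1.5 for 32 of the 41. In units of log2 CPM, the median range of the 11 group means was 0.367 among the members and 0.707 among all genes tested. The median SD between libraries of 1 group was 0.106 against 0.197. Small as the ranges were, an F-test over the 11 groups (edgeR quasi-likelihood) called 34 of the 41 (82.9%), beside 73.2% of all genes tested. The 7 genes not called were *set-32*, *mrg-1*, *set-9*, *set-26*, *ash-2*, *hpl-1* and *lin-61*. By generation, 30 genes had their lowest mean in an F1 group, 12 of them in F1 controls, and 22 had their highest in an F3 group, 15 of them in F3 recovery animals. How many of all genes tested have their extremes in the same groups was not counted, so this order is not read as particular to the members.

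**Figure D2:**
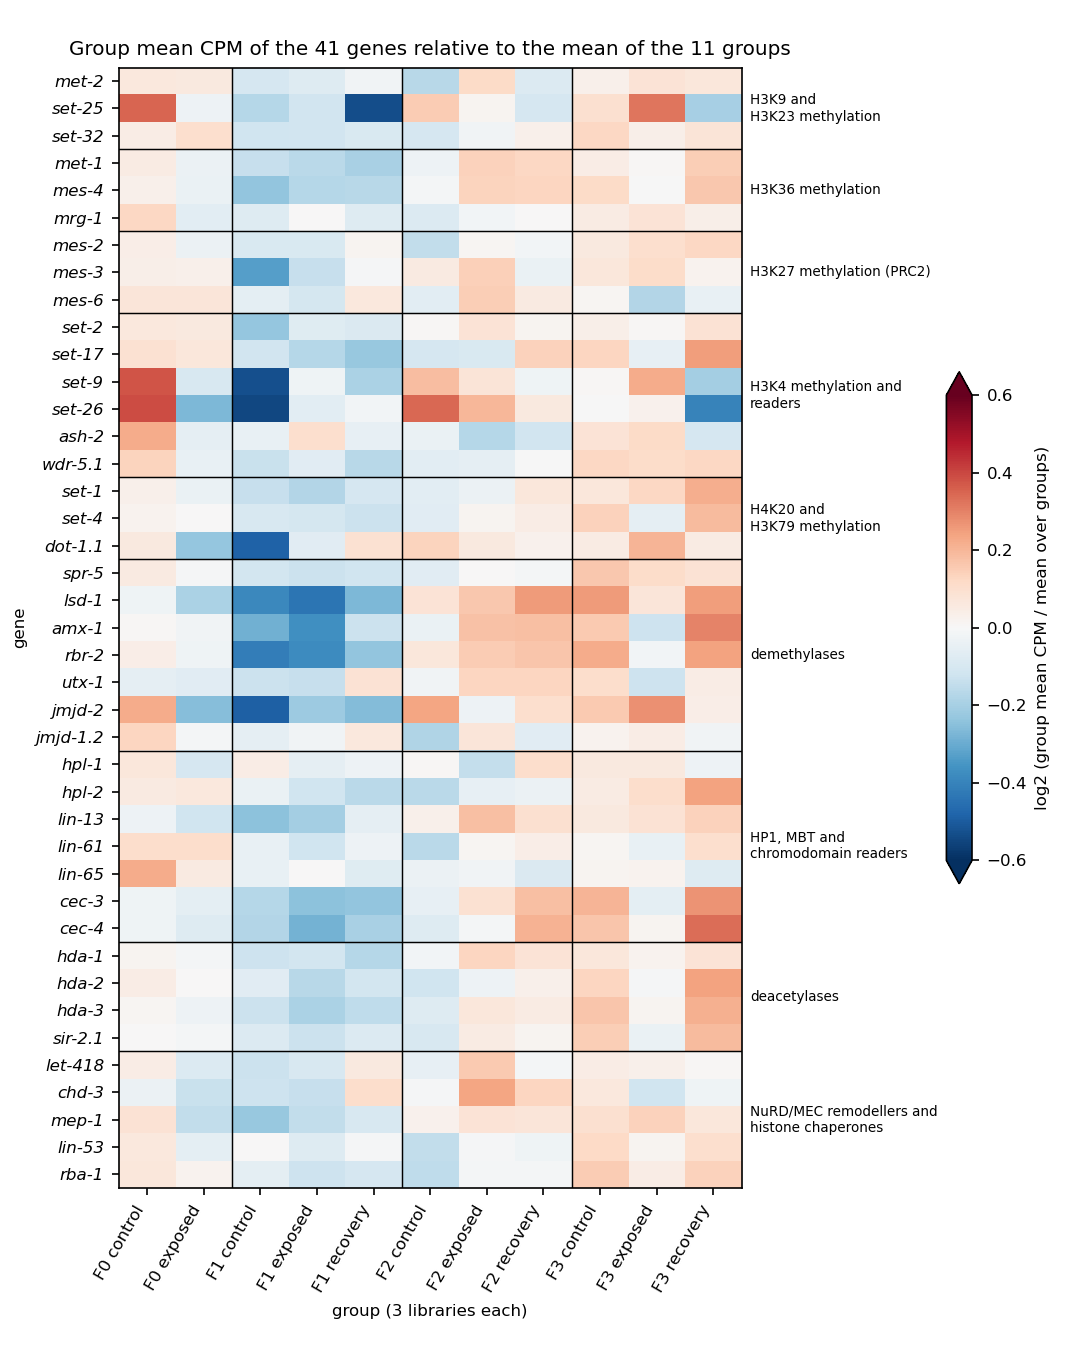
Group mean CPM of each of the 41 genes as the log2 ratio to its mean over the 11 groups, with genes ordered by role and groups by generation. The F1 columns are mostly blue (30 genes have their lowest mean there) and the F3 columns mostly red (22 have their highest there). The same was not counted for all genes tested.

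The libraries held 27.7 to 60.8 M counts (median 37.3 M), and the 41 genes together took 0.289% to 0.447% of them. Ribosomal RNA genes took 3.19% to 24.3%. Within F3 exposed animals they took 20.8% in replicate 1 and 6.8% and 6.03% in replicates 2 and 3. F3 recovery replicate 3 and F3 control replicate 3 stood apart with 18240 and 19610 genes detected, where the other libraries had at least 20503, and results on those groups were recomputed without both. Germline, oocyte, sperm, intestine, cuticle, muscle, neuron and male marker lists were checked, and every matched marker had counts in each group. For the 24 germline markers and the 36 cuticle and moulting markers a score was taken, the mean log2 CPM of the list. Opposite-strand exons of another gene overlap 9 members and same-strand exons overlap 2 (*mes-6* and *ash-2*). The strand setting of the counting is not given in the sources used here, so the levels of these genes are less certain.

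The H3K9 methyltransferase genes did not share a pattern. *met-2* (WBGene00019883; chromosome III, 8375300 to 8380848, plus strand, WBcel235), whose product mono- and dimethylates H3K9, had its lowest mean in F2 control and its highest in F2 exposed animals. *met-2* averaged 122, 111, 127 and 124 CPM in F0, F1, F2 and F3 exposed animals and 122, 109, 104 and 119.5 CPM in the controls of the same generations. In F1, F2 and F3 recovery animals the means of *met-2* were 115, 111 and 123 CPM, with SDs within the 11 groups from 0.221 to 9.71 CPM (n = 3). *set-25* (WBGene00012802; chromosome III, 13283824 to 13293090, minus strand) encodes the enzyme that trimethylates H3K9 at the nuclear periphery. *set-25* averaged 35.4, 33.5, 36.6 and 45.3 CPM in F0, F1, F2 and F3 exposed animals and 46.1, 32.2, 40.3 and 38.7 CPM in the controls of the same generations. Its means in recovery animals of F1, F2 and F3 were 25.1, 33.8 and 31.5 CPM, and SDs within the 11 groups were between 0.21 and 9.62 CPM (n = 3). The levels of *set-25* were highest in F0 control and F3 exposed animals and lowest in F1 recovery animals, 1.84-fold apart, the widest ratio among the members that differed between groups by the F-test (edgeR adjusted p = 0.00029). *set-32*, which acts with *set-25* in silencing inherited through the germline, ranged from 18.9 ± 2.26 CPM in F1 control to 22.4 ± 3 CPM in F3 control animals (edgeR adjusted p = 0.3 over the 11 groups).

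Both H3K36 methyltransferase genes were lowest in an F1 group. *met-1* (WBGene00016603; chromosome I, 4254197 to 4264699, plus strand) is the Set2-type enzyme of transcribed genes. *met-1* averaged 118, 108, 133 and 122 CPM in F0, F1, F2 and F3 exposed animals and 125, 109.7, 118 and 125 CPM in the controls of the same generations. Recovery animals of F1, F2 and F3 had 106, 132 and 134 CPM of *met-1*, and the SDs within the 11 groups ran from 1.49 to 8.84 CPM (n = 3). *mes-4* (WBGene00003222; chromosome V, 13433050 to 13437545, minus strand) maintains H3K36 methylation on germline genes without ongoing transcription. *mes-4* averaged 99.0, 90.5, 112 and 102 CPM in F0, F1, F2 and F3 exposed animals and 104, 86.4, 101 and 110.4 CPM in the controls of the same generations. In F1, F2 and F3 recovery animals the means of *mes-4* were 90.9, 112 and 114 CPM, with SDs within the 11 groups from 1.1 to 9.15 CPM (n = 3). Both genes were highest in F3 recovery animals, and their lowest means were in F1 recovery animals for *met-1* and F1 control animals for *mes-4*. *mrg-1*, a chromodomain protein of the family that binds methylated H3K36, ranged from 151 ± 12.8 CPM in F2 control to 174 ± 11.003 CPM in F0 control animals.

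Of the PRC2 genes, *mes-2* (WBGene00003220; chromosome II, 14383973 to 14388454, plus strand) encodes the catalytic subunit, *mes-6* (WBGene00003224; chromosome IV, 8511284 to 8513469, plus strand) the WD40 subunit and *mes-3* (WBGene00003221; chromosome I, 4996835 to 5003202, plus strand) a subunit particular to nematodes. *mes-2* averaged 57.8, 55.6, 59.5 and 63.5 CPM in F0, F1, F2 and F3 exposed animals and 60.8, 55.5, 53.4 and 61.6 CPM in the controls of the same generations. Its means in recovery animals of F1, F2 and F3 were 59.8, 58.5 and 64.5 CPM, and SDs within the 11 groups were between 0.125 and 7.38 CPM (n = 3). The values of *mes-2* in F2 controls were 53.4, 53.4 and 53.2 CPM, its lowest group. *mes-3* averaged 135, 119.7, 146 and 143 CPM in F0, F1, F2 and F3 exposed animals and 135, 105, 137 and 138 CPM in the controls of the same generations. Recovery animals of F1, F2 and F3 had 131, 128 and 134 CPM of *mes-3*, and the SDs within the 11 groups ran from 1.52 to 15.9 CPM (n = 3). For *mes-3* the F1 controls were lowest and F2 exposed animals highest. *mes-6* averaged 69.2, 61.1, 72.8 and 58.1 CPM in F0, F1, F2 and F3 exposed animals and 69.1, 63.2, 62.8 and 66.2 CPM in the controls of the same generations. In F1, F2 and F3 recovery animals the means of *mes-6* were 68.6, 68.1 and 63.6 CPM, with SDs within the 11 groups from 1.06 to 8.55 CPM (n = 3). The highest and lowest groups of *mes-6* were F2 exposed and F3 exposed animals, both irradiated.

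Among the H3K4 genes, *set-2* (WBGene00004782; chromosome III, 4922427 to 4930204, minus strand) encodes the SET1-type methyltransferase and *wdr-5.1* (WBGene00006474; chromosome III, 3705285 to 3706784, plus strand) and *ash-2* encode subunits of its complex. *set-2* averaged 94.7, 86.2, 96.1 and 91.2 CPM in F0, F1, F2 and F3 exposed animals and 94.9, 77.3, 91.1 and 92.9 CPM in the controls of the same generations. Its means in recovery animals of F1, F2 and F3 were 85.4, 91.9 and 96.5 CPM, and SDs within the 11 groups were between 0.981 and 7.78 CPM (n = 3). The means of *set-2* stayed within 1.248-fold, lowest in F1 control and highest in F3 recovery animals. *wdr-5.1* averaged 80.7, 79.5, 80.2 and 90.0 CPM in F0, F1, F2 and F3 exposed animals and 91.4, 75.9, 79.6 and 90.8 CPM in the controls of the same generations. Recovery animals of F1, F2 and F3 had 74.3, 83.2 and 90.8 CPM of *wdr-5.1*, and the SDs within the 11 groups ran from 1.1 to 16.1 CPM (n = 3). *wdr-5.1* was highest in F0 control and lowest in F1 recovery animals. *ash-2* ranged from 61.8 ± 2.04 CPM in F2 exposed to 81.1 ± 4.36 CPM in F0 control animals, and *set-17* from 110.4 ± 5.35 CPM in F1 recovery to 154 ± 13.995 CPM in F3 recovery animals. *set-9* and *set-26* encode near-identical proteins that read methylated H3K4, and how reads were divided between them is uncertain. Together they had the widest ranges, from 24.5 ± 2.35 CPM in F1 control to 45.9 ± 9.36 CPM in F0 control animals for *set-9* and from 15.5 ± 3.09 CPM in F1 control to 29.7 ± 7.77 CPM in F0 control animals for *set-26*, but their libraries also spread most within groups and the F-test did not call them (edgeR adjusted p = 0.22 and 0.2).

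The H4K20 methyltransferase genes stayed within 1.5-fold. *set-1*, the monomethyltransferase, ranged from 134 ± 7.69 CPM in F1 exposed to 175 ± 11.1 CPM in F3 recovery animals. *set-4*, which adds further methyl groups and acts in dosage compensation, ranged from 75.2 ± 4.45 CPM in F1 recovery to 94.0 ± 3.68 CPM in F3 recovery animals. *dot-1.1* (WBGene00021474; chromosome I, 2382953 to 2401492, minus strand), the H3K79 methyltransferase gene, ranged more widely, from 44.5 ± 5.87 CPM in F1 control to 71.7 ± 8.07 CPM in F3 exposed animals.

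Of the 9 members whose group means differed 1.5-fold or more, 4 were demethylase genes. *spr-5* (WBGene00005010; chromosome I, 13438058 to 13450218, plus strand) encodes the LSD1-type H3K4 demethylase. *spr-5* averaged 58.1, 53.2, 58.3 and 62.9 CPM in F0, F1, F2 and F3 exposed animals and 60.5, 53.9, 55.6 and 65.1 CPM in the controls of the same generations. In F1, F2 and F3 recovery animals the means of *spr-5* were 53.6, 57.8 and 61.8 CPM, with SDs within the 11 groups from 0.861 to 12.6 CPM (n = 3). The means of *spr-5* differed by at most 1.223-fold and its F3 control libraries spread widest, at 60.7, 79.3 and 55.4 CPM. The related amine oxidase genes *lsd-1* and *amx-1* ranged from 14.3 ± 0.983 CPM in F1 exposed to 23.2 ± 0.842 CPM in F2 recovery animals and from 13.8 ± 0.944 CPM in F1 exposed to 21.9 ± 1.04 CPM in F3 recovery animals. *rbr-2*, the KDM5-type enzyme that removes H3K4 methylation, ranged from 81.9 ± 14.3 CPM in F1 control to 129 ± 10.1 CPM in F3 recovery animals. *jmjd-2*, a KDM4-type enzyme acting on H3K9 and H3K36, ranged from 22.6 ± 0.584 CPM in F1 control to 38.4 ± 8.7 CPM in F3 exposed animals. These 4 were the wide ones, and all were lowest in an F1 group. *utx-1*, which demethylates H3K27, and *jmjd-1.2*, which acts on H3K9 and H3K27, moved less, from 19.0 ± 0.68 CPM in F1 exposed to 22.9 ± 0.901 CPM in F2 exposed animals and from 91.2 ± 0.928 CPM in F2 control to 113 ± 4.72 CPM in F0 control animals.

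Of the HP1 genes, *hpl-1* (WBGene00001995; chromosome X, 13245390 to 13247044, plus strand) had the lowest count of any member in a library. *hpl-1* averaged 6.09, 6.29, 5.92 and 6.8 CPM in F0, F1, F2 and F3 exposed animals and 6.84, 6.74, 6.56 and 6.81 CPM in the controls of the same generations. Its means in recovery animals of F1, F2 and F3 were 6.39, 7.03 and 6.39 CPM, and SDs within the 11 groups were between 0.101 and 1.63 CPM (n = 3). No difference among the 11 groups was called for *hpl-1* (edgeR adjusted p = 0.73). *hpl-2* (WBGene00001996; chromosome III, 10752195 to 10755530, minus strand), the HP1 gene needed for fertility at high temperature, was called. *hpl-2* averaged 119.7, 106, 111 and 124 CPM in F0, F1, F2 and F3 exposed animals and 118.98, 112, 103 and 118.9 CPM in the controls of the same generations. Recovery animals of F1, F2 and F3 had 102, 112 and 136 CPM of *hpl-2*, and the SDs within the 11 groups ran from 0.779 to 18.1 CPM (n = 3). Its mean was highest in F3 recovery and lowest in F1 recovery animals, 1.32-fold apart. The chromodomain genes *cec-3* and *cec-4*, whose products bind methylated H3K9 and, for CEC-4, anchor it at the nuclear periphery, ranged from 87.7 ± 0.109 CPM in F1 exposed to 125 ± 7.88 CPM in F3 recovery animals and from 56.7 ± 7 CPM in F1 exposed to 87.1 ± 6.91 CPM in F3 recovery animals. Both were lowest in F1 exposed and highest in F3 recovery animals. The zinc finger gene *lin-13*, whose product recruits HPL-2, ranged from 132 ± 6.26 CPM in F1 control to 177 ± 1.57 CPM in F2 exposed animals. *lin-61*, an MBT protein that binds methylated H3K9, ranged from 85.5 ± 8.84 CPM in F2 control to 103 ± 3.88 CPM in F0 control animals. *lin-65*, a partner of MET-2, ranged from 66.8 ± 4.53 CPM in F2 recovery to 82.8 ± 2.63 CPM in F0 control animals.

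The deacetylase genes were all lowest in an F1 group. *hda-1* (WBGene00001834; chromosome V, 14525389 to 14527411, plus strand) is the main class I histone deacetylase gene. *hda-1* averaged 221, 206, 243 and 226 CPM in F0, F1, F2 and F3 exposed animals and 226, 205, 221 and 234 CPM in the controls of the same generations. In F1, F2 and F3 recovery animals the means of *hda-1* were 198, 236 and 236 CPM, with SDs within the 11 groups from 4.19 to 19.7 CPM (n = 3). The lowest *hda-1* mean was in F1 recovery and the highest in F2 exposed animals. *hda-2*, *hda-3* and the sirtuin gene *sir-2.1* were all lowest in F1 exposed and highest in F3 recovery animals. They ranged from 46.8 to 62.0, from 65.0 to 86.1 and from 79.8 to 99.5 CPM.

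Of the remodeller and chaperone genes, the Mi-2 genes *let-418* and *chd-3* ranged from 185 ± 4.9 CPM in F1 control to 226 ± 12.5 CPM in F2 exposed animals and from 28.4 ± 1.31 CPM in F1 exposed to 36.8 ± 0.0966 CPM in F2 exposed animals. *mep-1*, the zinc finger partner of LET-418, ranged from 108 ± 5.06 CPM in F1 control to 139 ± 10.9 CPM in F3 exposed animals. The RbAp-type genes *lin-53* and *rba-1* are neighbours on the minus strand of chromosome I. They shared both extremes: *lin-53* ranged from 235.4 ± 1.83 CPM in F2 control to 283 ± 24.5 CPM in F3 control animals and *rba-1* from 124 ± 9.46 CPM in F2 control to 153 ± 10.9 CPM in F3 control animals.

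The first comparison asked how irradiated animals differed from controls of their own generation. In F0, after 1 generation of irradiation, no member passed the threshold (an edgeR p under 0.05 after Benjamini-Hochberg adjustment for all genes tested), although most values lay slightly below control. In F0 the members called numbered 0 by edgeR and 0 by DESeq2, and edgeR called 1.36% of all genes tested. The unadjusted p was under 0.05 for 10 members (24.4%) and for 16.2% of all genes. The fitted log2 fold change was positive for 3 of the 41 and its median was −0.07, beside 0.01 for all genes. The smallest p belonged to *mep-1*, at 104, 120.3 and 118.8 CPM in exposed and 138, 138 and 127 CPM in control animals (−0.23 ± 0.08 SE as log2 change, edgeR adjusted p = 0.16). *set-25* was next, at 31.2, 38.1 and 36.9 CPM against 47.2, 44.5 and 46.6 CPM (−0.38 ± 0.14 SE as log2 change, edgeR adjusted p = 0.19). For both genes all 3 exposed libraries lay below all 3 controls, without a call. Summed over the 41 genes, the libraries held 3539 to 3719 CPM in F0 exposed and 3791 to 3972 CPM in F0 control animals. Some tissue markers were also apart. Oocyte markers summed to 6450 to 8527 CPM in exposed and 8615 to 9918 CPM in control libraries, and neuron markers to 412 to 458 and 465 to 476 CPM. Male markers were higher in exposed libraries, at 8.12 to 9.66 against 5.04 to 7.11 CPM. The sums of the other lists overlapped. The part of the oocyte, neuron and male lists in the F0 values was not tested.

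In F1, the second irradiated generation, edgeR called none of the 41 genes and DESeq2 0, where edgeR called 1.47% of all genes tested. Before adjustment 3 members (7.32%) and 12.3% of all genes had a p under 0.05. The fitted values were positive for 21 of the 41, with a median under 0.01 in size. The smallest p belonged to *dot-1.1*, with 66.2, 52.6 and 59.2 CPM in exposed and 38.9, 43.8 and 50.6 CPM in control animals (0.42 ± 0.13 SE as log2 change, edgeR adjusted p = 0.14). *mes-3* followed with 122, 113 and 124 CPM against 107, 94.5 and 113 CPM (0.19 ± 0.08 SE as log2 change, edgeR adjusted p = 0.3). The *dot-1.1* libraries of both groups did not overlap and those of *mes-3* did. A fit of the F1 libraries alone called 3 members, among them *dot-1.1* (edgeR adjusted p = 0.035). That fit called 705 of 16966 genes, where the main fit called 259. Exposed libraries had a cuticle score of 4.85 to 5.19 and control libraries 4.51 to 4.83. Ribosomal RNA took 3.51 to 5.12% of exposed and 6.86 to 12.7% of control counts. Sperm markers summed to 2409 to 2436 CPM in exposed and 2694 to 3155 CPM in control libraries. Muscle markers summed to 4695 to 5396 and 3568 to 4427 CPM and male markers to 7.23 to 7.75 and 2.85 to 5.03 CPM. Neuron sums were also apart. The part of these sums in the F1 values was not tested.

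In F2 *met-2* and *jmjd-1.2*, genes of an H3K9 methyltransferase and of an H3K9 and H3K27 demethylase, rose in irradiated animals, and no member fell. This made 2 of 41 (4.88%), beside 9% of all genes called in either direction and 2.81% called higher. *met-2* was at 129.9, 124 and 126 CPM in exposed and 99.8, 101 and 113 CPM in control libraries. All exposed values lay above all controls, a rise of 1.21-fold from 104 ± 7.04 to 127 ± 3.07 CPM (SD, n = 3; 0.28 ± 0.06 SE as log2 change, edgeR adjusted p = 0.0089). *jmjd-1.2* was at 115, 109 and 101 CPM against 90.7, 92.3 and 90.7 CPM, again without overlap (1.19-fold, 0.25 ± 0.07 SE as log2 change, edgeR adjusted p = 0.019). The fitted values were positive for 34 of the 41 genes with a median of 0.09, where the median of all genes was −0.02. DESeq2 called 9 members and edgeR with DESeq2's size factors 6, all higher. Of all genes these settings called 2505 of 16199 and 2046 of 17627, where the main fit called 1587.

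*met-2* lost its call without exposed replicate 1 (edgeR adjusted p = 0.054) or control replicate 2 (edgeR adjusted p = 0.063), and *jmjd-1.2* without exposed replicate 1, control replicate 1 or control replicate 2 (edgeR adjusted p = 0.13, 0.053 and 0.071), while without control replicate 3 the members called numbered 7. Among all genes 2426 of 17852 were called without control replicate 3. With the cuticle score as a covariate neither was called (edgeR adjusted p = 0.34 and 0.32). With the germline score or the ribosomal RNA share as a covariate *met-2* was called (edgeR adjusted p = 0.036 and 0.043) and *jmjd-1.2* was not (edgeR adjusted p = 0.1 and 0.1). Beside these values, the cuticle score was 4.09 to 4.49 in exposed and 4.72 to 5.27 in control libraries, and 13 of its 36 genes fell. The germline score was 7.65 to 7.69 against 7.5 to 7.6, with 3 of 24 genes higher. The 29 sperm markers summed to 1782 to 1845 CPM in exposed and 2078 to 3192 CPM in control libraries, and 23 of them fell. Ribosomal RNA took 7.42 to 11.6% against 10.5 to 24.3% of counts. The part of both scores and of ribosomal RNA in the results on *met-2* and *jmjd-1.2* was tested only through the covariate fits. That of the sperm markers was not tested.

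**Figure D3:**
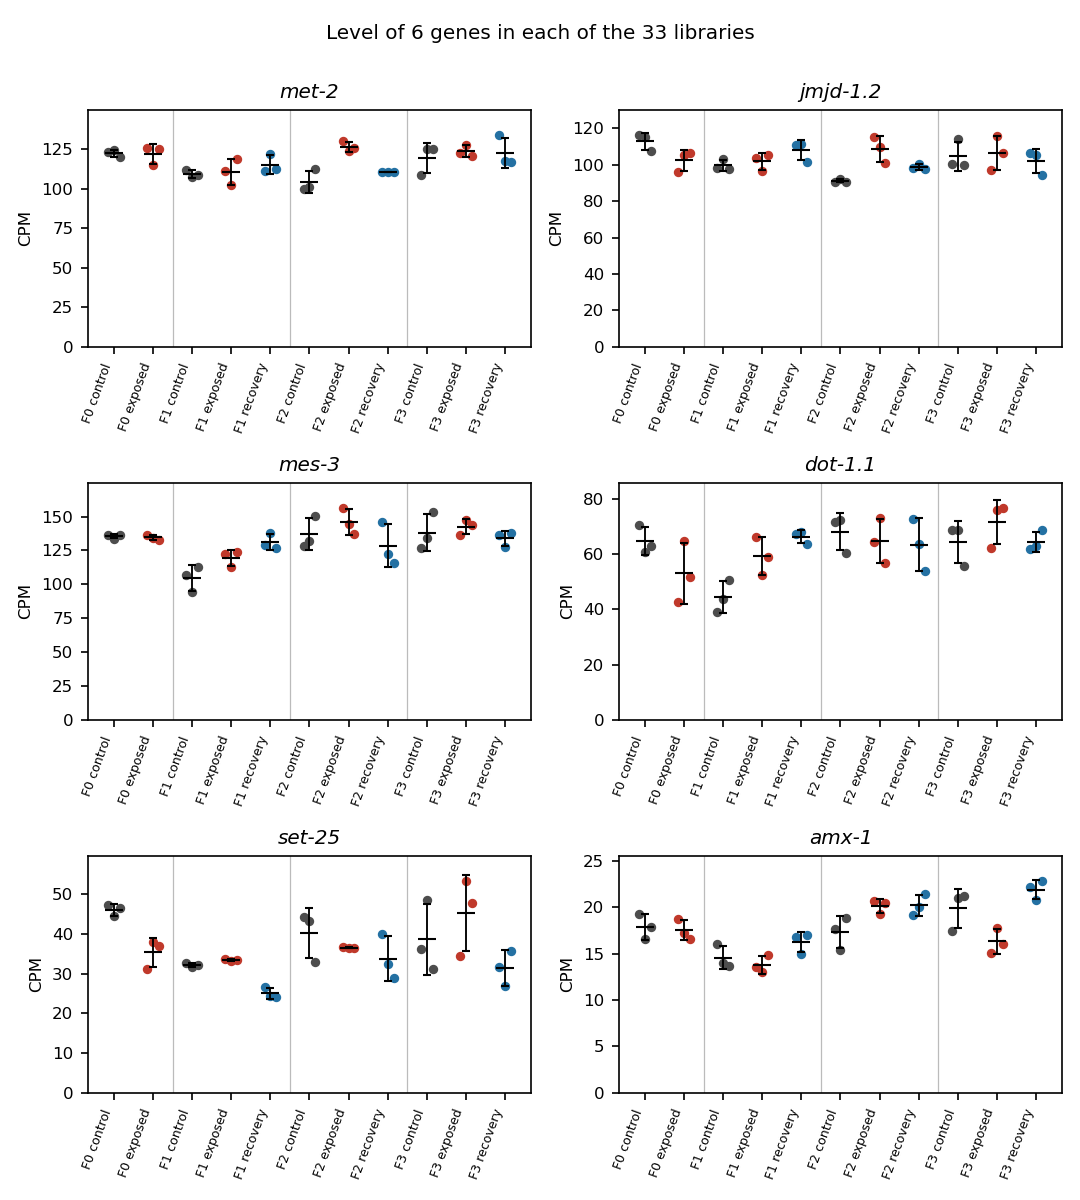
Level in CPM of *met-2*, *jmjd-1.2*, *mes-3*, *dot-1.1*, *set-25* and *amx-1* in each of the 33 libraries (points), with the mean and SD of each group (black), on axes that start at 0. The F2 exposed libraries of *met-2* lie at 124 to 129.9 CPM, above the F2 controls at 99.8 to 113 CPM, and the F3 exposed libraries of *amx-1* at 15.1 to 17.7 CPM lie below F3 recovery at 20.7 to 22.8 CPM.

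In F3, the fourth irradiated generation, the members called numbered 0 by edgeR and 0 by DESeq2, and edgeR called 5.24% of all genes tested. At an unadjusted p under 0.05 there were 7 members (17.1%), against 20.9% of all genes. Fitted values were positive for 16 of the 41 (median −0.04). *amx-1* had the smallest p, with 15.1, 17.7 and 16.05 CPM in exposed and 17.4, 20.9 and 21.2 CPM in control libraries (−0.29 ± 0.10 SE as log2 change, edgeR adjusted p = 0.076). *set-4* had 73.9, 87.3 and 76.9 CPM against 83.5, 100.2 and 87.6 CPM (−0.19 ± 0.06 SE as log2 change, edgeR adjusted p = 0.081). Both were lower on average with groups that overlapped. Without exposed replicate 2 the members called numbered 2, *set-4* among them (edgeR adjusted p = 0.026), and without control replicate 1 *amx-1* was called (edgeR adjusted p = 0.041). Leaving out exposed replicate 2 gave 696 calls among all genes, where the main fit gave 923. Ribosomal RNA took 20.8, 6.8 and 6.03% of counts in exposed replicates 1 to 3 and 6.78 to 15.7% in control libraries. With that share as a covariate *set-4* was called, and 1183 of all genes were.

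Averaged over the 4 generations, the fitted differences from control were small. Values of opposite sign cancel in such an average, and most members lay below control in F0 and above it in F2. Over F0 to F3 edgeR called none of the 41 genes and DESeq2 0, where edgeR called 8.29% of all genes tested. The unadjusted p was under 0.05 for 1 member (2.44%) and for 21.2% of all genes. The fitted values lay between −0.10 and 0.09 on the log2 scale (median −0.02, all genes −0.01), and their SEs between 0.03 and 0.16. *met-2* had the smallest p (0.09 ± 0.03 SE as log2 change, edgeR adjusted p = 0.1), followed by *mes-3* (0.08 ± 0.04 SE as log2 change, edgeR adjusted p = 0.25). The F2 values of *met-2* enter this average, so it is not independent of the F2 result. Without F2 control replicate 3 the average for *met-2* was called (edgeR adjusted p = 0.035).

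The next question was whether unirradiated descendants of irradiated F0 animals differed from controls. In F1, *dot-1.1*, *mes-3* and *lin-13* rose in recovery animals: the H3K79 methyltransferase gene, the nematode PRC2 subunit gene and the gene of the zinc finger protein that recruits HPL-2. No member fell. The 3 of 41 (7.32%) stand beside 2.81% of all genes called and 2.05% called higher. *dot-1.1* was at 67.3, 68.2 and 63.7 CPM in recovery and 38.9, 43.8 and 50.6 CPM in control libraries (1.49-fold, 0.58 ± 0.13 SE as log2 change, edgeR adjusted p = 0.013). *mes-3* was at 129, 138 and 127 CPM against 107, 94.5 and 113 CPM (1.252-fold, 0.32 ± 0.08 SE as log2 change, edgeR adjusted p = 0.021). *lin-13* was at 148, 155 and 149 CPM against 136, 135 and 125 CPM (1.14-fold, 0.19 ± 0.05 SE as log2 change, edgeR adjusted p = 0.048). For all 3 genes the recovery libraries lay above every control library, and F1 control was the lowest of the 11 groups for each.

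The F1 controls serve both F1 comparisons, and the F1 exposed means of the same genes were 59.3, 119.7 and 136 CPM, between control and recovery. Without recovery replicate 1 or 2 or control replicate 1 or 2, *dot-1.1* (edgeR adjusted p up to 0.12) and *mes-3* (up to 0.16) lost their calls, and that of *lin-13* ended whichever of the 6 libraries was left out (up to 0.22). *lin-13* was also not called with DESeq2's size factors (edgeR adjusted p = 0.064), with no filter on low counts (edgeR adjusted p = 0.24) or in a fit of the F1 libraries alone (edgeR adjusted p = 0.074). The cuticle score was 4.72 to 4.86 in recovery and 4.51 to 4.83 in control libraries, and the germline score 7.45 to 7.51 and 7.47 to 7.5, both overlapping. Other tissue markers were apart. The 14 intestine markers summed to 17155 to 18687 CPM in recovery and 19676 to 22785 CPM in control libraries, the 29 sperm markers to 2313 to 2453 and 2694 to 3155 CPM and the 13 neuron markers to 412 to 434 and 452 to 475 CPM, all lower in recovery. The 9 male markers summed to 5.61 to 6.13 and 2.85 to 5.03 CPM, higher in recovery. The part of these 4 lists in the rises of *dot-1.1*, *mes-3* and *lin-13* was not tested. Ribosomal RNA took 4.53 to 8.15% and 6.86 to 12.7% of counts, and with that share as a covariate *dot-1.1* and *mes-3* were called and *lin-13* was not (edgeR adjusted p = 0.02, 0.024 and 0.056).

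In later recovery generations no member passed the threshold. In F2 the members called numbered 0 by edgeR and 2 by DESeq2, and edgeR called 3.05% of all genes tested. DESeq2 called 1107 of 15632 genes. Before adjustment 10 members (24.4%) and 20.2% of all genes had a p under 0.05. Fitted values were positive for 33 of 41 genes (median 0.11, all genes −0.02). The chromodomain genes had the smallest p: *cec-4* at 78.6, 79.4 and 82.0 CPM in recovery and 63.98, 58.0 and 74.5 CPM in control libraries (0.29 ± 0.10 SE as log2 change, edgeR adjusted p = 0.11), and *cec-3* at 113, 118 and 123 CPM against 95.9, 92.4 and 113 CPM (0.23 ± 0.09 SE as log2 change, edgeR adjusted p = 0.17). The *cec-4* groups were apart and the *cec-3* groups overlapped, and DESeq2 called *cec-4* (adjusted p = 0.049). Without control replicate 3 both were called and the members called numbered 4. Among all genes 1425 of 17852 were then called, where the main fit called 538. With the cuticle score as a covariate both signs turned (−0.05 and −0.14, edgeR adjusted p = 0.96 and 0.85), the scores being 3.84 to 4.15 in recovery and 4.72 to 5.27 in control libraries.

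In F3 recovery animals edgeR called none of the 41 genes and DESeq2 0, where edgeR called 1.58% of all genes tested. At an unadjusted p under 0.05 there were 2 members (4.88%), against 15.8% of all genes. Fitted values were positive for 21 of the 41 (median under 0.01 in size). *hpl-2* was at 142, 124 and 140.5 CPM in recovery and 118, 134 and 104 CPM in control libraries (0.19 ± 0.08 SE as log2 change, edgeR adjusted p = 0.24), and it was called without control replicate 2 (edgeR adjusted p = 0.044). *set-25* was at 31.7, 26.9 and 35.8 CPM against 36.2, 48.6 and 31.3 CPM (−0.30 ± 0.14 SE as log2 change, edgeR adjusted p = 0.31). Both pairs of groups overlapped.

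Averaged over F1 to F3, *lin-13* rose and the H3K9 trimethylase gene *set-25* fell in recovery animals, 2 of 41 (4.88%) where 2.89% of all genes were called. *lin-13* rose 1.08-fold (0.11 ± 0.03 SE as log2 change, edgeR adjusted p = 0.044), with means of 151, 168 and 172 CPM in recovery and 132, 159.7 and 163 CPM in control animals. *set-25* fell 1.23-fold (−0.30 ± 0.08 SE as log2 change, edgeR adjusted p = 0.046), and its recovery libraries stood at 26.7, 24.4 and 24.1 CPM in F1, 39.9, 32.4 and 28.9 CPM in F2 and 31.7, 26.9 and 35.8 CPM in F3. The controls were at 32.6, 31.7 and 32.1, at 44.3, 43.4 and 33.1 and at 36.2, 48.6 and 31.3 CPM. In F1 all recovery libraries of *set-25* were lower than the controls, while in F2 and F3 the groups overlapped. Both calls were near the threshold. Leaving out 1 library ended that of *set-25* for each F1 library, F2 recovery replicates 2 and 3, F2 control replicates 1 and 2, F3 recovery replicates 1 and 2 and F3 control replicate 1 (edgeR adjusted p up to 0.1). That of *lin-13* ended in all cases but F2 control replicate 3, F3 recovery replicate 2 and F3 control replicate 2 (up to 0.08). With the cuticle score as a covariate neither gene was called (edgeR adjusted p = 0.054 for *set-25* and 0.25 for *lin-13*), nor with no filter on low counts (edgeR adjusted p = 0.087 and 0.12). With the ribosomal RNA share as a covariate *set-25* was called and *lin-13* was not (edgeR adjusted p = 0.013 and 0.28). *set-25* was not called with DESeq2's size factors (edgeR adjusted p = 0.053), nor *lin-13* without F3 recovery replicate 3 and F3 control replicate 3 together (edgeR adjusted p = 0.091). Over F1, F2 and F3 the cuticle score was 4.72 to 4.86, 3.84 to 4.15 and 3.18 to 3.7 in recovery and 4.51 to 4.83, 4.72 to 5.27 and 3.01 to 3.84 in control libraries, and the ribosomal RNA share 4.53 to 8.15, 7.9 to 11.6 and 4.09 to 10.2% against 6.86 to 12.7, 10.5 to 24.3 and 6.78 to 15.7%.

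Exposed and recovery animals both descended from irradiated F0 worms, and their comparison sets those still under irradiation against those removed from it. In F2 and F3 the exposed animals also had irradiated ancestors in the generations after F0. Irradiation of the animals and of these ancestors cannot be told apart there, nor in the average over F1 to F3. *amx-1* and *set-4* fell in exposed against recovery animals of F3, and *set-25* was higher in exposed animals on average. In F1 the members called numbered 0 by edgeR and 0 by DESeq2, and edgeR called 1.45% of all genes tested. The unadjusted p was under 0.05 for 6 members (14.6%) and for 13.9% of all genes. *set-25* was at 33.7, 33.2 and 33.5 CPM in exposed and 26.7, 24.4 and 24.1 CPM in recovery libraries (0.42 ± 0.14 SE as log2 change, edgeR adjusted p = 0.15), and *utx-1* at 18.8, 18.4 and 19.7 CPM against 21.8, 23.01 and 21.6 CPM (−0.22 ± 0.08 SE as log2 change, edgeR adjusted p = 0.17). Neither pair of groups overlapped, and the F1 libraries fitted alone called *set-25* (edgeR adjusted p = 0.0063). Intestine, body wall muscle, cuticle, neuron and male marker sums were apart in F1, all higher in exposed libraries. Intestine markers summed to 21326 to 23093 CPM in exposed and 17155 to 18687 CPM in recovery libraries. For body wall muscle the sums were 4695 to 5396 and 3742 to 3847 CPM. The part of these lists in the F1 values was not tested. In F2 edgeR called none of the 41 genes and DESeq2 0, where edgeR called 0.00567% of all genes tested. Before adjustment 6 members (14.6%) and 6.52% of all genes had a p under 0.05. *met-2* had 110.4, 110.4 and 111 CPM in recovery libraries, below the F2 exposed values given above (0.19 ± 0.06 SE as log2 change, edgeR adjusted p = 0.6). *let-418* had 231, 235.3 and 212 CPM in exposed and 210.1, 207 and 188 CPM in recovery libraries (0.17 ± 0.07 SE as log2 change, edgeR adjusted p = 0.69).

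In F3 the 2 of 41 (4.88%) called lower stand beside 1.68% of all genes called and 0.862% called lower. *amx-1*, an amine oxidase gene related to *spr-5*, was at 15.1, 17.7 and 16.05 CPM in exposed and 22.2, 20.7 and 22.8 CPM in recovery libraries (1.34-fold lower, −0.43 ± 0.10 SE as log2 change, edgeR adjusted p = 0.036). *set-4*, the H4K20 methyltransferase gene, was at 73.9, 87.3 and 76.9 CPM against 94.8, 89.9 and 97.1 CPM (1.18-fold lower, −0.24 ± 0.06 SE as log2 change, edgeR adjusted p = 0.047). All exposed libraries of both genes lay below all recovery libraries. Both calls ended without exposed replicate 1 or 3 or recovery replicate 1 or 3 (edgeR adjusted p up to 0.15 and 0.21), and without F3 recovery replicate 3 and F3 control replicate 3 together (edgeR adjusted p = 0.11 and 0.16). Neither was called in a fit of the F3 libraries alone (edgeR adjusted p = 0.32 and 0.4), nor *set-4* with no filter on low counts (edgeR adjusted p = 0.092). Without exposed replicate 2 or recovery replicate 2 the members called numbered 7 and 6. Leaving out exposed replicate 2 gave 975 calls among all genes, where the main fit gave 296. The cuticle score was 3.56 to 4.43 in exposed and 3.18 to 3.7 in recovery libraries. Some marker sums were apart, all higher in exposed libraries. They were 4537 to 4773 and 3344 to 3887 CPM for body wall muscle and 17842 to 18403 and 15823 to 17707 CPM for intestine. Cuticle markers summed to 3618 to 3911 and 2377 to 3595 CPM, and male markers to 4.03 to 6 and 2.24 to 3.09 CPM. Ribosomal RNA took 20.8, 6.8 and 6.03% of counts in exposed replicates 1 to 3 and 4.09 to 10.2% in recovery libraries. The part of the score, these lists and ribosomal RNA in these results was not tested.

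Averaged over F1 to F3, 2 of 41 (4.88%) were called where 1.4% of all genes were. *set-25* was 1.28-fold higher in exposed than in recovery animals (0.35 ± 0.08 SE as log2 change, edgeR adjusted p = 0.033), with exposed means of 33.5, 36.6 and 45.3 CPM over the 3 generations and recovery means of 25.1, 33.8 and 31.5 CPM. *amx-1* was 1.17-fold lower (−0.22 ± 0.05 SE as log2 change, edgeR adjusted p = 0.037), with exposed means of 13.8, 20.1 and 16.3 CPM and recovery means of 16.2, 20.2 and 21.9 CPM. The *set-25* means were higher in exposed animals in all 3 generations, while those of *amx-1* were closest in F2. The call for *set-25* ended without F1 exposed replicate 1 or 3, F1 recovery replicate 3, any F2 exposed library, F2 recovery replicate 2 or 3 or F3 exposed replicate 3 (edgeR adjusted p up to 0.077). That for *amx-1* held without F1 exposed replicate 3, F1 recovery replicate 2, F2 recovery replicate 1, F3 exposed replicate 2 or F3 recovery replicate 2 and ended without each other library (up to 0.087). With no filter on low counts neither was called (edgeR adjusted p = 0.057 for *set-25* and 0.069 for *amx-1*), and without F3 recovery replicate 3 and F3 control replicate 3 together *amx-1* was not (edgeR adjusted p = 0.057). In F1, F2 and F3 the cuticle score was 4.85 to 5.19, 4.09 to 4.49 and 3.56 to 4.43 in exposed and 4.72 to 4.86, 3.84 to 4.15 and 3.18 to 3.7 in recovery libraries, with exposed higher on the whole, and its part in both averaged calls was not tested. The recovery libraries enter this average and that against control with opposite sign, so the *set-25* results of both are not independent.

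Whether the response to irradiation itself changed between generations was tested as the difference of the exposed against control differences. From F0 to F2 the response of *jmjd-1.2* and of *lin-53*, the histone-binding WD40 gene, increased. The count of 2 of 41 (4.88%) stands beside 3.04% of all genes, 0.425% in that direction. *jmjd-1.2* was at 95.8, 105 and 106 CPM in exposed and 116, 115 and 107 CPM in control libraries of F0, lower in exposed, and higher in F2 as given above (change 0.39, SE 0.10, edgeR adjusted p = 0.025). *lin-53* was at 240.5, 246 and 263 CPM against 269.8, 279 and 268 CPM in F0 and at 257, 258 and 262 CPM against 237, 236 and 233 CPM in F2 (change 0.26, SE 0.07, edgeR adjusted p = 0.049). Exposed libraries of *lin-53* were all below control in F0 and all above it in F2. The fitted change was positive for all 41 genes (median 0.19, all genes −0.03). Exposed and control libraries had a cuticle score of 2.43 to 2.89 and 2.67 to 3.09 in F0, and of 4.09 to 4.49 and 4.72 to 5.27 in F2. No covariate fit was made for this change, so the part of the score in it was not tested. The call for *jmjd-1.2* ended without F0 exposed replicate 1, F0 control replicate 1 or 2, F2 exposed replicate 1 or 2 or F2 control replicate 2 (edgeR adjusted p up to 0.1). That for *lin-53* held only without F0 exposed replicate 3, F0 control replicate 3 or F2 control replicate 3 (otherwise up to 0.12), and it ended with no filter on low counts (edgeR adjusted p = 0.14).

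From F2 to F3 the response decreased for 6 of 41 members (14.6%), where 9.07% of all genes were called and 3.66% lower. They were the H3K36 and H3K27 methyltransferase complex genes *mes-4* and *mes-6*, the demethylase genes *amx-1* and *utx-1*, the sirtuin gene *sir-2.1* and *lin-53*. *amx-1* changed by −0.50 on the log2 scale (SE 0.14, edgeR adjusted p = 0.023): it was at 20.6, 19.2 and 20.5 CPM in exposed and 17.7, 15.4 and 18.8 CPM in control libraries of F2, and lower than control on average in F3. *mes-6* changed by −0.40 (edgeR adjusted p = 0.041), with 75.1, 68.1 and 75.1 CPM against 59.2, 56.7 and 72.6 CPM in F2 and 60.7, 60.5 and 53.2 CPM against 62.1, 65.0 and 71.4 CPM in F3. *utx-1* changed by −0.38 (edgeR adjusted p = 0.036), with 19.3, 19.8 and 18.5 CPM in exposed and 22.6, 22.9 and 21.997 CPM in control libraries of F3. The F3 exposed libraries of *mes-6* and *utx-1* lay below every F3 control. *sir-2.1* changed by −0.33, *mes-4* by −0.26 and *lin-53* by −0.24 (edgeR adjusted p = 0.042, 0.048 and 0.041). The fitted change was negative for 33 of the 41 genes (median −0.19, all genes 0.03). Exposed and control libraries had a cuticle score of 4.09 to 4.49 and 4.72 to 5.27 in F2, and of 3.56 to 4.43 and 3.01 to 3.84 in F3. Ribosomal RNA took 7.42 to 11.6% and 10.5 to 24.3% of counts in F2 exposed and control libraries. In F3 these shares were 6.03 to 20.8% and 6.78 to 15.7%, the 20.8% being that of exposed replicate 1. No covariate fit was made for this change either, so the part of the score and of ribosomal RNA in it was not tested.

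None of the 6 was called within F2 or within F3 alone, and each call from F2 to F3 ended without F2 exposed replicate 1, F2 control replicate 2, F3 exposed replicate 1 or F3 control replicate 2. All but *amx-1* also lost it without F2 exposed replicate 3, F2 control replicate 1 or F3 exposed replicate 3, *mes-6* without F3 control replicate 3 and *lin-53* without F2 exposed replicate 2. The highest edgeR adjusted p in these omissions was 0.12, 0.13, 0.085, 0.12, 0.11 and 0.1 for *mes-4*, *mes-6*, *amx-1*, *utx-1*, *sir-2.1* and *lin-53*. The count of members ran from 0 to 13 over the 12 omissions, DESeq2 called 13, and a fit with no filter on low counts called only *mes-6*. Of all genes DESeq2 called 2486 of 16199 and the fit with no filter 850 of 29235, where the main fit called 1598. Without F3 recovery replicate 3 and F3 control replicate 3 the count was 7, but *mes-6* and *sir-2.1* were not among them (edgeR adjusted p = 0.055 and 0.053). That fit called 2089 of 17780 genes. The members called there beside the other 4 were *set-4*, *cec-3* and *rba-1*. From F0 to F1 and from F0 to F3 edgeR called no member, where it called 0.0567% and 0.221% of all genes. DESeq2 called 0 and 0, and 9 and 4 members (22% and 9.76%) had an unadjusted p under 0.05. For all genes these shares were 14.2% and 14.9%. The smallest p from F0 to F1 belonged to *dot-1.1* (change 0.71, edgeR adjusted p = 0.19) and *jmjd-2* (0.75, edgeR adjusted p = 0.27), and from F0 to F3 to *set-25* (0.61, edgeR adjusted p = 0.19) and *mep-1* (0.28, edgeR adjusted p = 0.29). *set-25* was called in the latter without F3 exposed replicate 1 (edgeR adjusted p = 0.028) or F3 control replicate 2 (edgeR adjusted p = 0.027).

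The most members were called between generations of unirradiated controls. From F0 to F1 controls 15 members fell and none rose, led by the H3K4 demethylase gene *rbr-2*, *mes-3*, *mes-4*, *set-2*, *lin-65*, *dot-1.1*, *lin-13* and *mep-1*. The 36.6% of members called stand beside 19.8% of all genes, and 15 falls beside 9.21% of genes called lower. *rbr-2* was at 97.5, 69.3 and 78.8 CPM in F1 and 113, 111 and 113 CPM in F0 controls (1.37-fold lower, −0.45 ± 0.09 SE as log2 change, edgeR adjusted p = 0.00054). *mes-4* fell from 104 ± 3.09 to 86.4 ± 2.71 CPM (−0.27 ± 0.06 SE as log2 change, edgeR adjusted p = 0.0019), and *mes-3* from 135 ± 1.52 to 105 ± 9.48 CPM (−0.37 ± 0.08 SE as log2 change, edgeR adjusted p = 0.0015). *set-2* fell 1.23-fold and *lin-65* 1.2-fold (edgeR adjusted p = 0.0028 and 0.0043). *dot-1.1*, *mep-1* and *lin-13* fell 1.46-fold, 1.24-fold and 1.16-fold (edgeR adjusted p = 0.0049, 0.0084 and 0.005). The libraries of these 8 genes did not overlap between the generations, and they kept their calls without any 1 of the 6 libraries. They were named for smallest p, and overlap was not counted for all genes. Of the other falls, *set-25* and *jmjd-2* also kept their calls. Those of *set-26* and its paralog *set-9* ended in 6 and 3 of the 6 omissions, that of *wdr-5.1* in 5 and those of *lsd-1* and *amx-1* in 4 each. The fitted value was negative for all 41 genes, called or not (median −0.17, all genes −0.02).

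From F1 to F2 controls 9 members rose and 1 fell (24.4%, beside 23.5% of all genes, 12.8% higher and 10.6% lower). *rbr-2* rose 1.4-fold to 107, 109 and 127 CPM (0.48 ± 0.09 SE as log2 change, edgeR adjusted p = 0.00018), *dot-1.1* 1.53-fold to 71.8, 72.3 and 60.6 CPM (0.62 ± 0.13 SE as log2 change, edgeR adjusted p = 0.0011) and *jmjd-2* 1.65-fold from 22.1, 23.3 and 22.4 to 46.7, 39.3 and 26.3 CPM (0.72 ± 0.19 SE as log2 change, edgeR adjusted p = 0.0065). *mes-3*, *lin-13*, *lsd-1*, *mes-4* and *set-2* rose 1.3-fold, 1.21-fold, 1.38-fold, 1.17-fold and 1.18-fold (edgeR adjusted p = 0.00064, 0.0003, 0.0039, 0.0057 and 0.011). *lin-53* fell 1.11-fold, from 261, 264 and 258 to 237, 236 and 233 CPM (edgeR adjusted p = 0.039). The same F1 control libraries enter this comparison and the one before it, so a low F1 value gives a fall in the first and a rise in the second. Calls ended for *mes-4* and *set-2* without F1 control replicate 2 (edgeR adjusted p = 0.07 and 0.14) or F2 control replicate 3 (edgeR adjusted p = 0.068 and 0.18), for *jmjd-2* without F2 control replicate 1 (edgeR adjusted p = 0.078) and for *lin-53* without F1 control replicate 1 or 3 (edgeR adjusted p = 0.082 and 0.068).

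From F2 to F3 controls 12 members rose and none fell (29.3%, beside 29.2% of all genes and 12.9% called higher). The neighbouring genes *lin-53* and *rba-1* led, at 284, 306 and 257 CPM and 152, 165 and 143 CPM in F3 against 237, 236 and 233 and 122, 117 and 135 CPM in F2 controls (1.2-fold and 1.23-fold, edgeR adjusted p = 0.00066 and 0.002). These kept their calls without any 1 library. The deacetylase genes *hda-2*, *sir-2.1* and *hda-3* rose 1.19-fold, 1.19-fold and 1.18-fold, *mes-2* 1.16-fold, *set-4* 1.15-fold and *met-2* 1.14-fold (edgeR adjusted p = 0.011, 0.012, 0.025, 0.018, 0.019 and 0.024). All 6 lost their calls without F2 control replicate 2 or F3 control replicate 2, when 2 members in all were called in each case. *sir-2.1*, *mes-2*, *met-2* and *hda-3* also lost theirs without F2 control replicate 1, *mes-2* without F3 control replicate 1 and *met-2* without F3 control replicate 3 (edgeR adjusted p up to 0.1, 0.096, 0.23, 0.15, 0.15 and 0.11 for the 6 genes in the order above). Without F2 control replicate 1 the count was 4. All genes called were 4149 without F2 control replicate 1 and 3174 without F2 control replicate 2, beside 5148 in the main fit.

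Tissue markers and the ribosomal RNA share differed between the same controls. Ribosomal RNA took 3.19 to 4.92% of counts in F0, 6.86 to 12.7% in F1, 10.5 to 24.3% in F2 and 6.78 to 15.7% in F3 controls, with F0 below all later controls. Intestine markers summed to 25495 to 33117, 19676 to 22785, 18408 to 22469 and 16944 to 18619 CPM, without overlap between F0 and F1. Body wall muscle markers were apart as well, at 4803 to 5223 CPM in F0 and 3568 to 4427 CPM in F1 controls. The cuticle score was 2.67 to 3.09, 4.51 to 4.83, 4.72 to 5.27 and 3.01 to 3.84 in F0, F1, F2 and F3 controls, and the germline score 7.63 to 7.72, 7.47 to 7.5, 7.5 to 7.6 and 7.55 to 7.83. From F0 to F1 controls 25 of 36 cuticle genes rose and 2 fell, and 9 of 24 germline and 8 of 15 oocyte genes fell. From F2 to F3 controls 32 of 36 cuticle genes fell and 5 of 24 germline genes rose. The 24 germline markers summed to 7893 to 8799, 7102 to 7707, 7353 to 8394 and 7541 to 9551 CPM over the 4 control generations. Generation, culture and stage at harvest cannot be told apart in these controls, and the part of the markers and of ribosomal RNA in the results between controls was not tested.

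**Figure D4:**
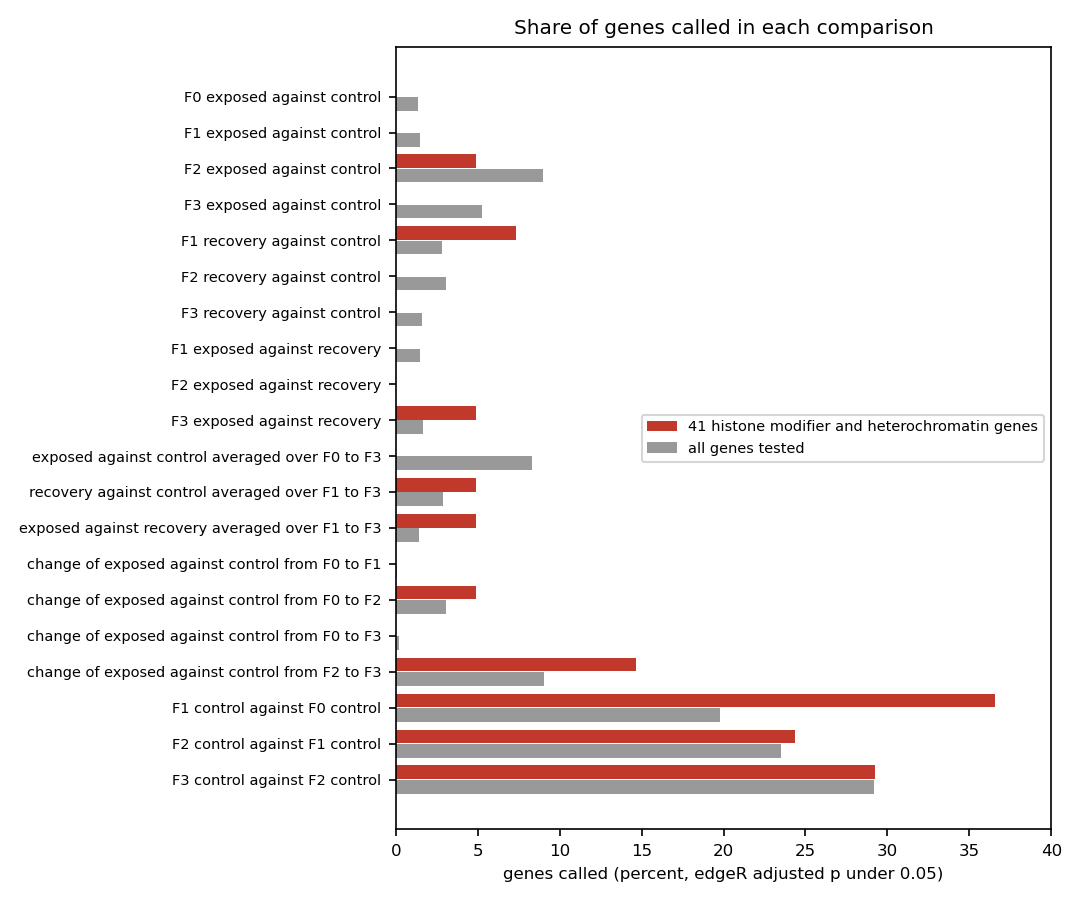
Percent of the 41 genes (red) and of all genes tested (grey) called at an edgeR adjusted p under 0.05 in each of 20 comparisons, on an axis that starts at 0. The longest bars belong to the comparisons between control generations (36.6%, 24.4% and 29.3% of members), and no comparison of groups within a generation exceeds 7.32% of members or 9% of all genes.

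Spread within groups was concentrated in few members. The 5 with the largest SD of log2 CPM between libraries of a group were *set-26* (0.418), *set-9* (0.355), *jmjd-2* (0.25), *set-25* (0.19) and *dot-1.1* (0.175), against 0.0501 for the steadiest, *lin-53*. These 5 were chosen after their values were seen and no test is given. In 7 of the 11 groups all 5 were lowest in the same library, and in 3 groups all 5 were highest in the same library. In F0 exposed animals the log2 deviations from the group mean in replicates 1, 2 and 3 were −0.88, 0.71 and 0.17 for *set-26* and −0.43, 0.28 and 0.15 for *jmjd-2*. In F2 control animals they were 0.36, 0.22 and −0.58 for *set-26* and 0.36, 0.11 and −0.47 for *jmjd-2*. The 5 genes share libraries, and *set-9* and *set-26* also share sequence, and what sets their common spread was not tested.

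**Figure D5:**
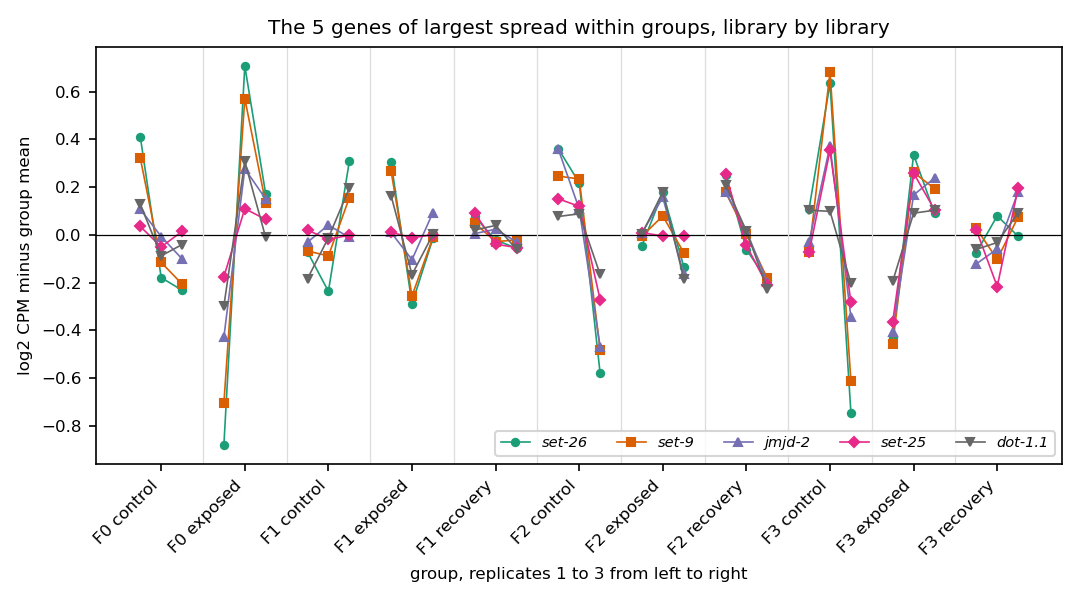
Log2 CPM of *set-26*, *set-9*, *jmjd-2*, *set-25* and *dot-1.1* in each library minus the mean of its group, with replicates 1 to 3 from left to right. The lines of the 5 genes dip in the same library in 7 of the 11 groups, replicate 1 in F0 exposed animals and replicate 3 in F2 control animals among them.

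Other chromatin genes, 109 by name from the same families and from acetyltransferase, synMuv B and remodeller lists, gave 106 matches and 105 tested genes. In F0 exposed against control none of the 105 was called by edgeR, where 1.36% of all genes were. An unadjusted p under 0.05 was held by 25 of the 105 and by 16.2% of all genes. In F1 the deacetylase gene *hda-5* fell and the remodeller gene *nurf-1* rose in exposed animals (log2 fold change −0.56 and 0.45, edgeR adjusted p = 0.033 and 0.037). These 2 genes were 1.9% of the list where 1.47% of all genes were called in F1. In F2 5 rose and 2 fell, 6.67% of the list beside 9% of all genes, led by falls of the JmjC gene *jmjd-1.1* (log2 fold change −0.75, edgeR adjusted p = 0.0078) and of the DOT1 family gene *dot-1.3* (log2 fold change −1.51, edgeR adjusted p = 0.031) and rises of the retinoblastoma-type gene *lin-35* (log2 fold change 0.28, edgeR adjusted p = 0.014) and of the NuRD-type gene *egl-27* (log2 fold change 0.20, edgeR adjusted p = 0.031). In F3 3 fell and none rose (2.86%, beside 5.24% of all genes): *hda-6*, *hda-11* and *jmjd-4* (log2 fold change −0.20, −0.73 and −0.42, edgeR adjusted p = 0.023, 0.026 and 0.042). Averaged over F0 to F3, the SET domain gene *set-18* rose and *set-15*, another of that class, and *nmad-1* fell (0.25, −0.22 and −0.20, edgeR adjusted p = 0.0025, 0.0097 and 0.033). These were 2.86% of the list, below the 8.29% of all genes called.

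In F1 recovery animals 6 of the 105 rose and none fell (5.71%, beside 2.81% of all genes called and 2.05% called higher). They included the SWI/SNF gene *swsn-3* (log2 fold change 0.62, edgeR adjusted p = 0.00013), the acetyltransferase genes *cbp-1* (log2 fold change 0.39, edgeR adjusted p = 0.0016) and *hat-1* (log2 fold change 0.36, edgeR adjusted p = 0.0094) and the JmjC gene *jmjd-3.2* (log2 fold change 0.70, edgeR adjusted p = 0.012). *jmjd-3.2*, *cbp-1* and *swsn-3* were also lower in F1 exposed than in F1 recovery animals (log2 fold change −0.69, −0.30 and −0.35, edgeR adjusted p = 0.021, 0.031 and 0.04), a comparison that shares the F1 recovery libraries. They were 2.86% of the list, where 1.45% of all genes were called. In F2 recovery animals *set-27* and *jmjd-1.1* fell (−0.37 and −0.61, edgeR adjusted p = 0.03 and 0.045), in F3 *jmjd-4* fell (log2 fold change −0.52, edgeR adjusted p = 0.024), and *sir-2.4* was lower in F3 exposed than in F3 recovery animals (log2 fold change −0.45, edgeR adjusted p = 0.037). The shares of the list called were 1.9%, 0.952% and 0.952%. Those of all genes were higher, at 3.05%, 1.58% and 1.68%. Averaged over F1 to F3, *nmad-1* fell and *set-19* rose in recovery animals (−0.31 and 0.21, edgeR adjusted p = 0.016 and 0.046). Both together were 1.9% of the list, beside 2.89% of all genes called. Between control generations 3 rose and 30 fell from F0 to F1, 24 rose and 2 fell from F1 to F2, and 31 rose and 3 fell from F2 to F3. These were 31.4%, 24.8% and 32.4% of the list, where 19.8%, 23.5% and 29.2% of all genes were called. For calls in either direction the last 2 shares lie near the background. By direction they do not. Of all genes 9.21% were called lower from F0 to F1, 12.8% higher from F1 to F2 and 12.9% higher from F2 to F3. The 30 falls, 24 rises and 31 rises of the 105 were larger shares in these directions.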

How the data were processed

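Total RNA of whole N2 worms was sequenced from strand-specific libraries as paired 150-base reads, per the labels. The deposited values are whole-number counts per gene for 46778 identifiers in each of 33 libraries, without normalisation by the authors. STAR and DESeq2 1.22.2 are named in the submitters' processing notes, with no role given. Genome build, counting program and strand setting were not given in the sources used here. Identifiers were matched to WBcel235 for names, positions and exon lengths.

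Groups follow the generation and treatment in the labels. Depth was 27.7 to 60.8 M counts. Replicates were not copies (chi-square per degree of freedom at least 8.53 in 33 pairs). The largest values, 176 and 175, were those of F3 exposed replicate 1 with replicates 2 and 3. Between F3 exposed replicates 2 and 3 the value was 10.1. edgeR 4.0.16 in R 4.3.3 gave quasi-likelihood F-tests of the counts (robust, TMM scaling, filterByExpr, 1 coefficient per group, 22 residual degrees of freedom). A gene was called at p under 0.05 after Benjamini-Hochberg adjustment over the 17627 genes kept, with no fold threshold. CPM use the TMM factors. SEs were calculated back from the F statistic and are approximate.

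The 41 genes and the lists were chosen with earlier results of these data known. In each comparison up to 8 called members each way (10 for averages), by smallest p, were named, or the 2 of smallest p where fewer than 2 were called, besides 13 members named throughout. Of the other chromatin lists the 4 genes of smallest p in a comparison were eligible. Alternatives were DESeq2 1.42.0, its size factors, no filter, a replicate block, fits of 1 generation, tissue score covariates and leaving out each library.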

Additional observations from a re-analysis of the deposited data

Results flagged for a closer look

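Differences between generations in the response to irradiation were tested as such, and these 8 were called among the 41 genes. From F0 to F2 the exposed against control difference of *jmjd-1.2*, a demethylase gene, changed by 0.39 on the log2 scale (edgeR adjusted p = 0.025). That of *lin-53*, a histone-binding WD40 gene, changed by 0.26 over the same generations (edgeR adjusted p = 0.049).

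From F2 to F3 the exposed against control difference changed by −0.26 for *mes-4*, −0.40 for *mes-6*, −0.50 for *amx-1*, −0.38 for *utx-1*, −0.33 for *sir-2.1* and −0.24 for *lin-53* (edgeR adjusted p = 0.048, 0.041, 0.023, 0.036, 0.042 and 0.041). The F2 libraries enter both sets, so the 2 changes of *lin-53* are not independent. In F2 the cuticle score also differed between exposed and control libraries, and its part in these changes was not tested. All groups held 3 libraries, and single libraries with outlying values of a member were not searched for at that size. F3 recovery replicate 3 and F3 control replicate 3, which had few genes detected, were left out together in an alternative fit.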

How the results depend on the processing

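The numbers of members called changed with these settings, and the cause was not tested. With DESeq2's size factors they were 6 in F2 exposed against control, 1 in recovery against control averaged and 4 for the change from F0 to F2. All genes called were then 2046, 578 and 544, where the main fit called 1587, 510 and 535. With DESeq2 itself they were 9, 4 and 5 in the same 3, 2 in F2 recovery against control, 5 in F3 exposed against recovery and 13 for the change from F2 to F3. In the same order DESeq2 called 2505, 1144, 1149, 1107, 809 and 2486 of all genes. The main fit called 1587, 510, 535, 538, 296 and 1598. With no filter on low counts they were 1 in F3 exposed against recovery, 0 in averaged recovery against control, 0 in averaged exposed against recovery, 1 from F0 to F2, 1 from F2 to F3 and 5 from F2 to F3 controls. Of 29235 genes this setting called 128, 336, 159, 375, 850 and 4112. The main fit called 296, 510, 247, 535, 1598 and 5148 of 17627. Fits of 1 generation gave 3 in F1 exposed against control, 1 in F2 recovery against control, 1 in F1 and 0 in F3 exposed against recovery. Calls among all genes were 705, 1012, 704 and 1, where the main fit gave 259, 538, 255 and 296. The cuticle covariate gave 1 in F1, 0 in F2 and 1 in averaged exposed against control and 0 in averaged recovery against control, where *cec-4* and *cec-3* in F2 recovery reversed to −0.052 and −0.14. It called 396, 42, 1758 and 51 of all genes in these 4, where the main fit called 259, 1587, 1462 and 510. The germline covariate gave 1 in F3 exposed and 1 in F2 recovery against control. All genes called were 1334 and 408 with it, and 923 and 538 in the main fit. The ribosomal RNA share, a covariate chosen after seeing the data, gave 1 and 3 in F2 and F3 exposed against control and 1 in averaged recovery against control. With it 642, 1183 and 68 of all genes were called, beside 1587, 923 and 510 in the main fit. Without F3 recovery replicate 3 and F3 control replicate 3 together, also chosen after seeing the data, there were 0 in F3 exposed against recovery and 1 and 1 in the averages of recovery against control and exposed against recovery. Calls among all genes were then 7, 229 and 176, where the main fit gave 296, 510 and 247.

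Leaving out 1 library gave 0 to 7, 0 to 2 and 0 to 1 members in F2, F3 and averaged exposed against control, 0 to 2, 0 to 4, 0 to 1 and 0 to 5 in F1, F2, F3 and averaged recovery against control, 0 to 7 and 0 to 4 in F3 and averaged exposed against recovery, 0 to 4, 0 to 1 and 0 to 13 for the changes from F0 to F2, F0 to F3 and F2 to F3, and 10 to 14, 8 to 11 and 2 to 16 between successive controls. The count over all genes moved too. In F2 exposed against control it was 153 without F2 control replicate 2 and 2426 without F2 control replicate 3, beside 1587 in the main fit. Of the alternatives for every member called in a comparison, or the 2 of smallest p where none was, 752 kept direction and side of the threshold, 257 lost the call, 15 gained one and 2 reversed.

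Replicate numbers did not pair the libraries: same-numbered deviations correlated by −0.22 to 0.33, in 0 of 10 comparisons were all over 0.1, and in 0 of 10 did every library correlate best with its own number. With the replicate number as a block the members called were 1 in F3 exposed against recovery, 0 in averaged recovery against control, 1 from F0 to F2, 2 in F2 exposed and 2 in F1 recovery against control, and no other count moved by over 1.5 times. All genes called with the block were 215, 416, 411, 1492 and 468, beside 296, 510, 535, 1587 and 495 in the main fit. With 3 libraries a group and SEs of 0.05 to 0.33 (log2) for the members within a generation, small differences can be missed.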
